A study of Mus musculus with 6 samples.

Results

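The epidermal growth factor (EGF) receptor family and its ligands were examined in mouse 344SQ tumours sorted by flow cytometry on CD133, a surface glycoprotein encoded by Prom1. The genes set for this account were the receptors Egfr, Erbb2 and Erbb3 and the ligands Btc, Nrg1, Tgfa, Epgn, Ereg, Hbegf and Areg. Every probe set that the platform annotation assigned to one of these genes alone was taken, whatever its value, which gave 20 of 45037 probe sets and 9 of the 10 genes. Areg, which encodes amphiregulin, had 0 probe sets named in that annotation and is not analysed here. The CD133 high fraction (3 arrays) was compared with the CD133 low fraction (3 arrays). Cells of both came from the same kind of tumour, grown under the skin of syngeneic mice from 344SQ. This single cell line was derived from a lung adenocarcinoma of a mouse carrying p53R172HdelG/+. The 344SQ cells of both fractions therefore share that mutant p53 allele, and the labels name no drug for either fraction. Whether each array stands for its own animal, sort or pool is not in the labels.

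ErbB receptors are transmembrane tyrosine kinases that pair when a ligand binds and then signal through the MAPK and PI3K–Akt pathways. ErbB2 has no known ligand of its own and ErbB3 has little kinase activity, so both work mainly as partners. The ligands are made as membrane-bound precursors and released by ADAM proteases: transforming growth factor alpha, epigen and amphiregulin bind EGFR, betacellulin, epiregulin and HB-EGF bind EGFR and ErbB4, and neuregulin 1 binds ErbB3 and ErbB4. In lung epithelium the family is known for roles in growth and repair.

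Two-sided limma fits over all 45037 probe sets, at an adjusted p under 0.05, called 0 of the 20 probe sets in either direction. Across the array the same fit called 0.0155% of probe sets higher and 0.167% lower (0.182% in either direction). At an unadjusted p under 0.05, 4 of the 20 were higher and 0 lower, beside 7.78% and 7.9% of all probe sets. In these same 4, both of Btc, 1 of Tgfa and the single one of Nrg1, every CD133 high array lay above every CD133 low array, as in 10.3% of all probe sets. In 0 of the 20 did every CD133 high array lie below, against 10.5% of all, or 20.8% with both directions. The median difference was 0.17 over the 20 probe sets and 0.02 over all, on the log2 scale, and several of the 20 share a gene. Values below are log2 probe set values as the authors deposited them, differences are CD133 high minus CD133 low, and errors are SDs over 3 arrays unless stated. Probe sets bind with different strength, so a level is compared between arrays and never between probe sets.

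**Figure D1:**
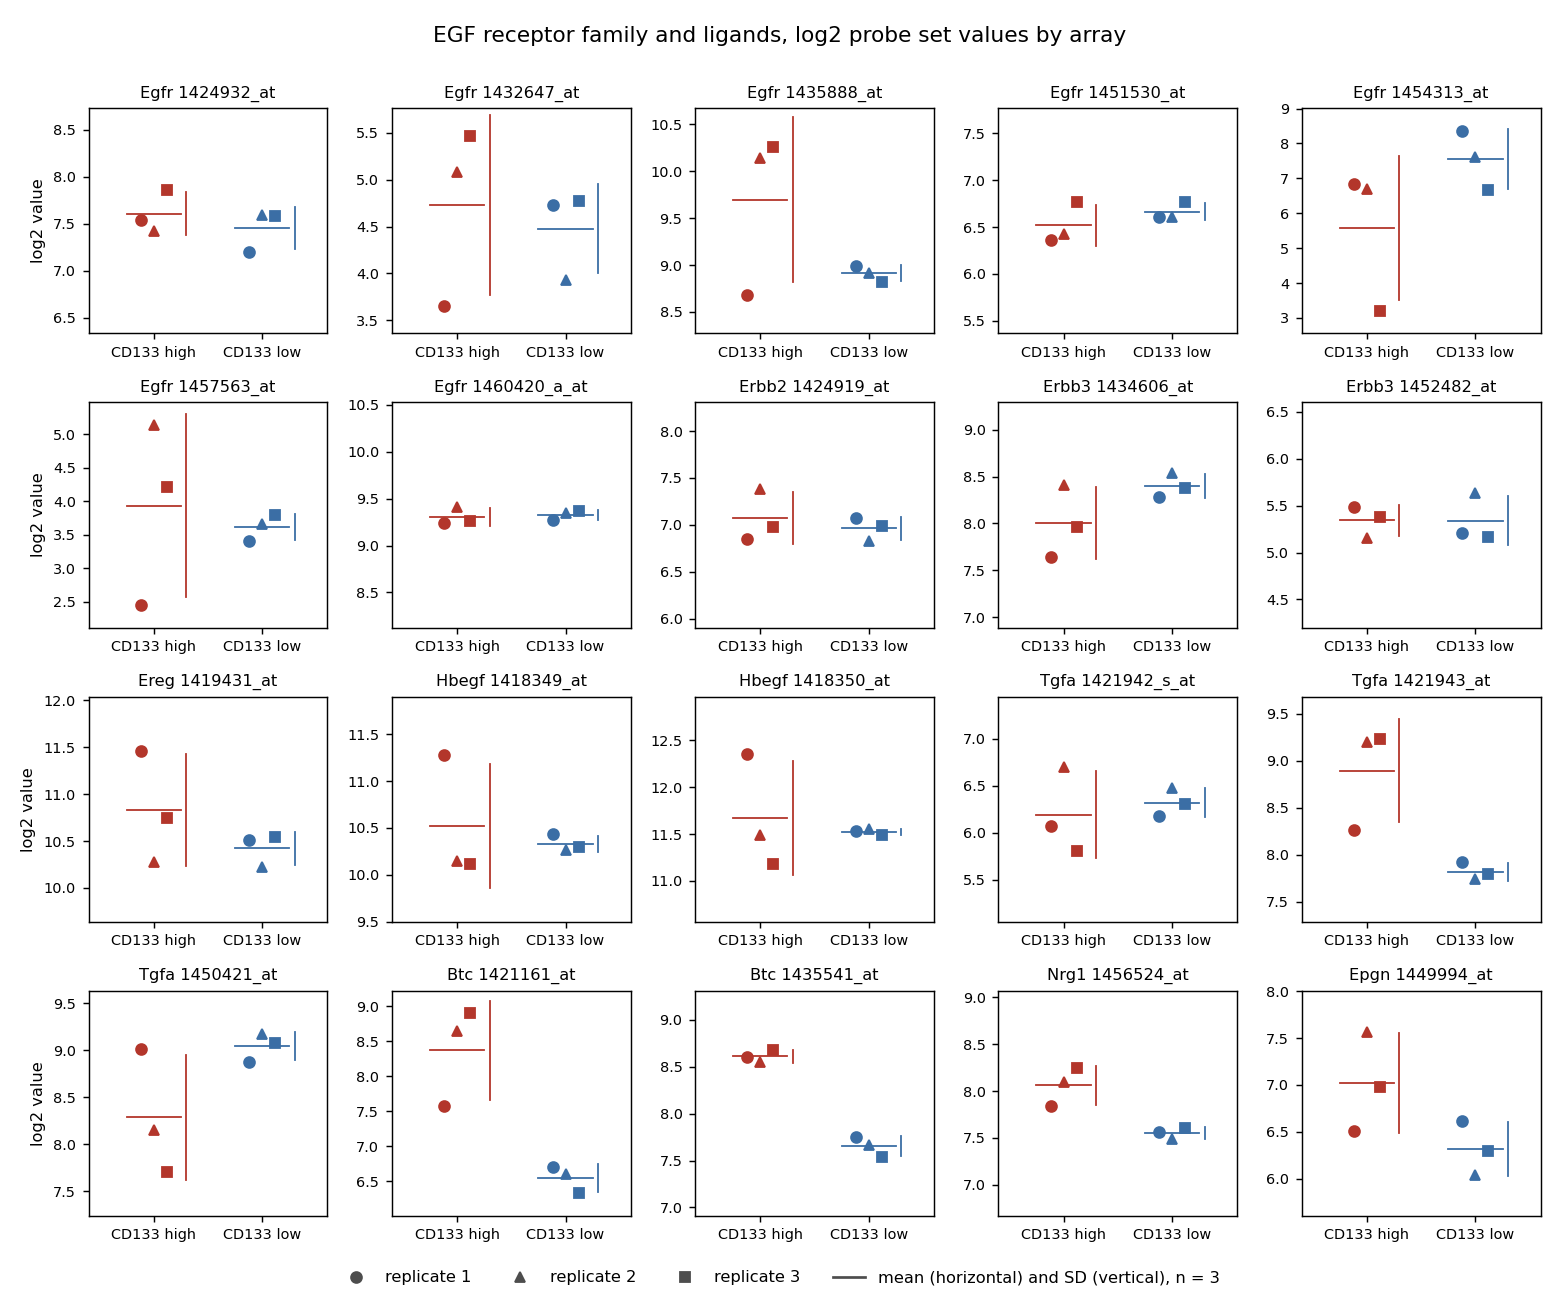
Log2 value of each of the 20 probe sets (a panel each) on the 3 CD133 high arrays (red, left) and the 3 CD133 low arrays (blue, right), with marker shapes for replicates, a horizontal line for the mean and a vertical line for the SD (n = 3). Panels have their own y range. The red points lie above all blue points in both Btc panels, in Tgfa 1421943_at and in Nrg1.

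The CD133 high arrays were not alike. Principal component 1 (46.2% of variance) put CD133 high replicate 1 at −52.4, near the CD133 low arrays (−77.1 to −59.1), and CD133 high replicates 2 and 3 at 126 and 133. Bacterial hybridisation controls averaged 10.38, 11.29 and 11.04 on CD133 high replicates 1, 2 and 3 and 10.19 to 10.51 on the CD133 low arrays. The 3′ minus middle difference of the Gapdh control was −0.13, 0.44 and 0.46 on the 3 CD133 high arrays and −0.09 to −0.07 on the CD133 low arrays. Values without CD133 high replicate 1 are given below for each named gene whose call they change. Without it the fit called 9.5% of all probe sets higher and 11.8% lower, so a call there is far more common. The part of these array differences in any result was not tested.

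Prom1, the gene of the sorted antigen, read 6.80, 6.63 and 6.40 on the CD133 high arrays and 5.49, 5.92 and 6.06 on the CD133 low arrays, with an adjusted p of 0.297 (0.125 without CD133 high replicate 1). Both fractions held cells other than carcinoma cells. The epithelial marker Cdh1 read 12.30 to 12.52 in CD133 high and 12.28 to 12.39 in CD133 low. Krt8 read 12.62 to 12.95 in CD133 high and 12.26 to 12.59 in CD133 low, without overlap (difference 0.41). However, 6 of the 10 epithelial markers were negative in difference (list median −0.14), Cldn7 (−0.73) and Cldn4 (−0.42) without overlap. The leukocyte marker Ptprc read 12.74 to 13.20 in CD133 high and 12.77 to 13.20 in CD133 low, but 6 of the 8 pan-leukocyte markers were negative in difference (list median −0.66), Cd52 (0.437-fold) and Coro1a (−0.83 on the log2 scale) without overlap. Of both lists 0 were called over 6 arrays. Without CD133 high replicate 1, Cd52 and Coro1a were called lower, as were other pan-leukocyte markers. The differences of Cd52 and Coro1a were then −1.74 and −1.15 on the log2 scale (adjusted p = 0.00352 and 0.00879). Of the epithelial markers, Epcam was called higher (0.38, adjusted p = 0.048) and Krt18 lower (−0.76, adjusted p = 0.0355) in that fit. The fibroblast marker Col1a2 read 13.60 to 13.99 in CD133 high and 13.56 to 13.77 in CD133 low. Of the 8 fibroblast markers, 6 were positive and 2 negative in difference (list median 0.17), and 0 were called. Thy1, 1 of these 2, was lower without overlap (−1.16), and was called without CD133 high replicate 1 (−1.51, adjusted p = 0.00309). In that same fit Pdgfra and Col1a1 were called higher (0.92 and 0.64, adjusted p = 0.00784 and 0.0173). Of the 10 epithelial markers Esrp1 was listed at 0 on 5 of the 6 arrays. For all genes here, fewer cells of a type and less RNA per cell cannot be told apart.

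RefSeq's promoter table held 6 of the 10 genes, each with 250 bases before and 50 bases after a transcript start. The windows of Btc, Tgfa and Egfr are shown because probe sets of these genes had the family's largest positive differences. Other probe sets of Egfr and Tgfa had its largest negative differences (−1.97 and −0.76). Searched on both strands were TGGGAA, the core bound by RBPJ, the DNA-binding partner of Notch, which the study's title names, TGANTCA (AP-1), TGACGTCA (the cyclic AMP response element) and GGGCGG (Sp1), and capitals mark the matches, of which 0 overlapped each other in these windows. In GRCm38.p6 the windows are chr5:91402945-91403244 on the minus strand for Btc, chr6:86194972-86195271 on the plus strand for Tgfa and chr11:16751953-16752252 on the plus strand for Egfr, all given 5′ to 3′.
Btc: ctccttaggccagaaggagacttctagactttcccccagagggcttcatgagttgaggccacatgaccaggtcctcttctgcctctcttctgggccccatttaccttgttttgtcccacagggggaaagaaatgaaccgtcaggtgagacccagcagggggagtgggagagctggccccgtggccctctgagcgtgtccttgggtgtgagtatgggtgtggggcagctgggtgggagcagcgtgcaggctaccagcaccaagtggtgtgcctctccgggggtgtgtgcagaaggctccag
Tgfa: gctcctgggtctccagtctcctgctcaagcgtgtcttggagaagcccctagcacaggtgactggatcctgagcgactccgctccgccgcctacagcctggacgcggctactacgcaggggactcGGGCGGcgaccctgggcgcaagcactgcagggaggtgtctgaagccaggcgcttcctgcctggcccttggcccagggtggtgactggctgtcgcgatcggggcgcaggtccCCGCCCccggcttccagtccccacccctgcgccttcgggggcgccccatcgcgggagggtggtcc
Egfr: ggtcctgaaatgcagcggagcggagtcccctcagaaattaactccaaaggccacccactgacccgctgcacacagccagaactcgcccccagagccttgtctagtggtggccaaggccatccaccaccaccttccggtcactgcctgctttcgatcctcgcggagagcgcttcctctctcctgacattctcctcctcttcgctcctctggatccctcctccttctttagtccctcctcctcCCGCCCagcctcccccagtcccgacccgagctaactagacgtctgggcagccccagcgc

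The Tgfa window held 2 matches to GGGCGG and the Egfr window 1, and 35.7% of 32851 promoter windows of this length hold one. The Btc window, like those of Erbb2 and Epgn, held 0 matches to any of the 4 motifs, which says only that these letters are not in it. TGGGAA, present in 25.6% of all windows, was in none of the 3 shown, nor were TGANTCA (7.81%) and TGACGTCA (1.79%). Of the members, the Areg window alone held TGGGAA and TGACGTCA.

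Betacellulin had the smallest p of the family. Its brighter probe set, Btc 1435541_at, read 8.60, 8.55 and 8.68 on the CD133 high arrays and 7.75, 7.67 and 7.54 on the CD133 low arrays. All 3 CD133 high arrays, replicate 1 included, stood close together and above every CD133 low array. The means of 8.61 ± 0.0671 in CD133 high and 7.65 ± 0.107 in CD133 low differed by 0.96 (SE 0.15, 95% interval 0.60 to 1.31), a 1.94-fold difference whose adjusted p of 0.0976 missed the threshold. Without CD133 high replicate 1 the difference was again 0.96, with an adjusted p of 0.00935.

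The other probe set, Btc 1421161_at, read 7.57, 8.64 and 8.90 on the CD133 high arrays and 6.71, 6.60 and 6.33 on the CD133 low arrays. Here too the groups did not overlap, but CD133 high replicate 1 lay nearer to the CD133 low arrays than replicates 2 and 3 did. The difference was 1.82 (SE 0.36, 95% interval 0.97 to 2.68), or 3.54-fold, with an adjusted p of 0.17. Without CD133 high replicate 1 it was 2.23, or 4.68-fold, with an adjusted p of 0.00309. Adjusted for hybridisation control level over 6 arrays it was 1.09 (adjusted p = 0.462), where Btc 1435541_at was 0.96 (adjusted p = 0.223). The 2 probe sets therefore gave the same direction on every CD133 high array and different sizes on replicates 2 and 3.

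Neuregulin 1, the ligand of ErbB3 and ErbB4, was represented by Nrg1 1456524_at. It read 7.84, 8.10 and 8.25 on the CD133 high arrays and 7.56, 7.49 and 7.61 on the CD133 low arrays. The groups did not overlap, with CD133 high replicate 1 the nearest to the CD133 low arrays. The difference was 0.51 (SE 0.17, 95% interval 0.10 to 0.93), or 1.43-fold, with an adjusted p of 0.297. Without CD133 high replicate 1 it was 0.62, with an adjusted p of 0.0288, and adjusted for hybridisation control level 0.35 (adjusted p = 0.796).

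Transforming growth factor alpha gave opposite differences at its probe sets, although the annotation lists the same accession for all 3. Tgfa 1421943_at read 8.26, 9.20 and 9.23 on the CD133 high arrays and 7.92, 7.74 and 7.79 on the CD133 low arrays, without overlap. Its difference was 1.08 (SE 0.28, 95% interval 0.41 to 1.75), or 2.11-fold, with an adjusted p of 0.277, and 1.40 without CD133 high replicate 1, with an adjusted p of 0.00326. Adjusted for hybridisation control level it was 0.52 (adjusted p = 0.729).

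The brightest probe set of the gene, Tgfa 1450421_at, read 9.01, 8.15 and 7.70 on the CD133 high arrays and 8.88, 9.17 and 9.08 on the CD133 low arrays. CD133 high replicate 1 lay within the CD133 low arrays and replicates 2 and 3 below all of them, a split seen at 15.7% of all probe sets. The difference was −0.76 (SE 0.33, 95% interval −1.54 to 0.02) with an adjusted p of 0.325, and −1.12 without CD133 high replicate 1, with an adjusted p of 0.0129. It was −0.19 when adjusted for hybridisation control level (adjusted p = 0.95). Tgfa 1421942_s_at differed by −0.13 (adjusted p = 0.839) with overlapping groups, and the mean of the 3 probe sets by 0.06 (adjusted p = 0.857). No direction for Tgfa as a gene can be read from these values.

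Epigen, a ligand of EGFR, read 6.51, 7.57 and 6.98 on the CD133 high arrays and 6.62, 6.04 and 6.30 on the CD133 low arrays at Epgn 1449994_at. CD133 high replicates 2 and 3 lay above all CD133 low arrays and replicate 1 among them, a split that 16.2% of all probe sets showed. The difference of 0.70 (SE 0.32, 95% interval −0.07 to 1.47) had an adjusted p of 0.338, and without CD133 high replicate 1 it was 0.95 with an adjusted p of 0.0657. Adjusted for hybridisation control level it was 0.24 (adjusted p = 0.94).

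HB-EGF, a heparin-binding ligand also made by myeloid cells, was set apart on a single array. Hbegf 1418350_at read 12.35, 11.49 and 11.18 on the CD133 high arrays and 11.53, 11.55 and 11.49 on the CD133 low arrays. Hbegf 1418349_at read 11.28, 10.15 and 10.12 on the CD133 high arrays and 10.43, 10.26 and 10.30 on the CD133 low arrays. At both probe sets CD133 high replicate 1 alone stood above the CD133 low arrays, as at 12.5% of all probe sets, by 0.83 and 0.95. The differences of 0.15 (95% interval −0.56 to 0.86) and 0.19 (−0.57 to 0.94) had adjusted p of 0.81 and 0.779. Without CD133 high replicate 1 both turned to −0.19, with adjusted p of 0.334 and 0.23. They were 0.73 and 0.92 when adjusted for hybridisation control level (adjusted p = 0.603 and 0.299).

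Epiregulin, a ligand of EGFR and ErbB4, read 11.46, 10.28 and 10.75 on the CD133 high arrays and 10.51, 10.22 and 10.54 on the CD133 low arrays at Ereg 1419431_at. CD133 high replicate 1 was again the highest, by 1.03 over the CD133 low mean, and replicate 2 lay within the CD133 low range. Its difference of 0.40 (SE 0.30, 95% interval −0.31 to 1.12) had an adjusted p of 0.504. Without CD133 high replicate 1 it was 0.09 (adjusted p = 0.761), and adjusted for hybridisation control level 1.13 (adjusted p = 0.0944).

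**Figure D2:**
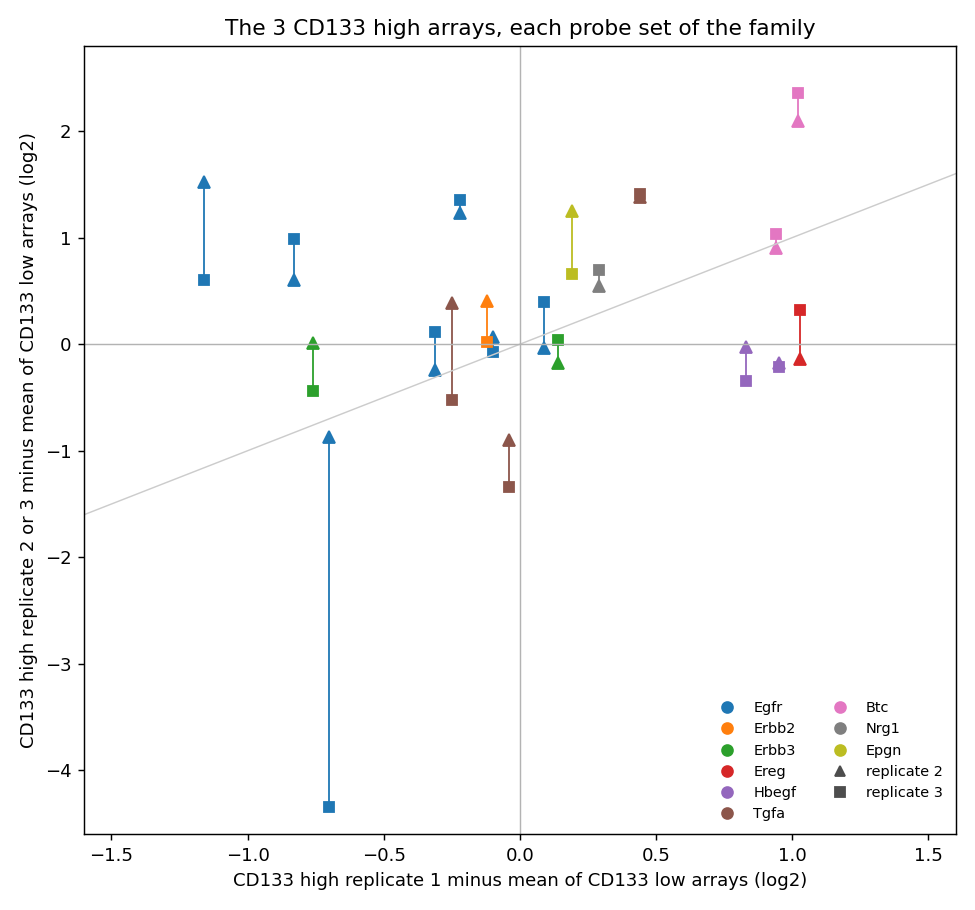
Each probe set's log2 value on CD133 high replicate 1 (x axis) and on CD133 high replicates 2 and 3 (y axis, triangle and square joined by a line), all minus the mean of the CD133 low arrays, coloured by gene, with the diagonal marking equal values. Both Btc probe sets lie at upper right, Hbegf and Ereg to the right near 0 on the y axis, and Egfr 1435888_at at the upper left (−0.22 against 1.23 and 1.35).

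Summed neutrophil, pan-leukocyte, macrophage and epithelial markers were each highest on CD133 high replicate 1, the array on which Hbegf and Ereg were highest too. The summed linear level of 5 of the 7 listed neutrophil markers was 46500, 26400 and 16600 on CD133 high replicates 1, 2 and 3. On the CD133 low arrays it was 30400 to 35400, with 0 of the 5 called and none at 0. Pan-leukocyte markers (8 of 8 measured, 0 called, none at 0) summed to 66500, 39700 and 35500 in CD133 high and 62000 to 62600 in CD133 low. Macrophage markers (9 of 9 measured, 0 called, none at 0) summed to 46400, 41900 and 41700 in CD133 high and 43300 to 44600 in CD133 low. Epithelial markers (10 of 10 measured, 0 called) summed to 27300, 24800 and 19700 in CD133 high and 21800 to 25000 in CD133 low. A sum of linear levels mostly follows its brightest markers. On CD133 high replicate 1 the median of these lists, in this order, lay 0.56, 0.09, 0.09 and −0.11 from the CD133 low mean. Fibroblast and endothelial markers summed highest on CD133 high replicate 3 (73200 and 2010). Mast cell and basophil markers summed highest on CD133 low replicate 2 (11600). The part of any marker list in the values of Hbegf, Ereg or Btc was not tested.

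**Figure D3:**
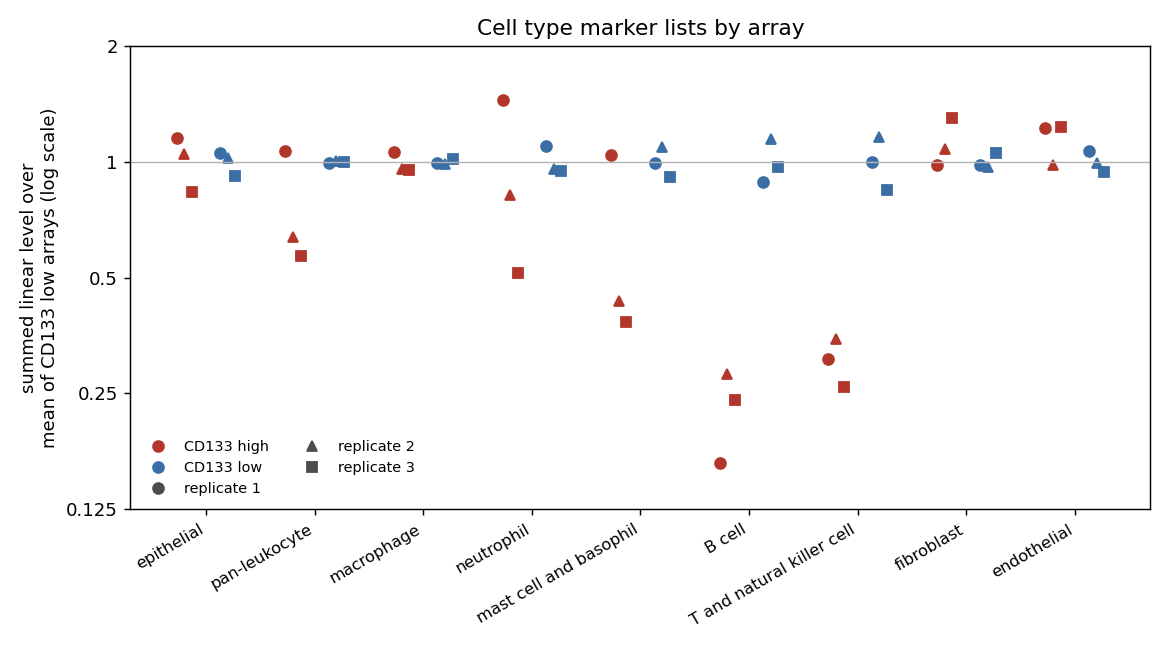
Summed linear level of 9 cell type marker lists on each array, divided by the mean of the CD133 low arrays (log axis), for CD133 high (red, left) and CD133 low (blue, right), with marker shapes for replicates. Neutrophil, pan-leukocyte, macrophage and epithelial markers are each highest on CD133 high replicate 1 and lowest on CD133 high replicate 3. B-cell and T-cell lists are low on all 3 CD133 high arrays.

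Among the receptors, Egfr had 7 probe sets, and they did not move as one. The brightest, Egfr 1460420_a_at, read 9.24, 9.41 and 9.26 on the CD133 high arrays and 9.27, 9.35 and 9.37 on the CD133 low arrays. These values overlapped and differed by −0.03 (SE 0.13, 95% interval −0.35 to 0.29, adjusted p = 0.918), which places a change of the mean beyond 0.35 in either direction outside the interval. Egfr 1435888_at read 8.68, 10.14 and 10.26 on the CD133 high arrays and 8.99, 8.92 and 8.82 on the CD133 low arrays. CD133 high replicates 2 and 3 stood above and replicate 1 below all CD133 low arrays.

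The difference at Egfr 1435888_at was 0.79 (SE 0.41, adjusted p = 0.371) over 6 arrays and 1.29 (95% interval 1.02 to 1.56, adjusted p = 0.00315) without CD133 high replicate 1, whereas Egfr 1460420_a_at then differed by 0.00 (95% interval −0.27 to 0.27). Adjusted for hybridisation control level, Egfr 1435888_at turned to −0.15 (adjusted p = 0.959). Egfr 1424932_at and Egfr 1451530_at, which share an accession in the annotation, differed by 0.15 and −0.15 (adjusted p = 0.721 and 0.738). Egfr 1454313_at differed by −1.97 (95% interval −4.35 to 0.41, adjusted p = 0.363), with 6.85, 6.68 and 3.20 on the CD133 high arrays and 8.36, 7.62 and 6.66 on the CD133 low arrays, a range carried by CD133 high replicate 3. Egfr 1432647_at and Egfr 1457563_at were among the dimmest 25% of the table and differed by 0.25 and 0.32 (adjusted p = 0.827 and 0.828).

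Erbb2, the partner receptor without a ligand, read 6.85, 7.38 and 6.98 on the CD133 high arrays and 7.07, 6.83 and 6.99 on the CD133 low arrays at Erbb2 1424919_at. The groups overlapped and differed by 0.10 (95% interval −0.41 to 0.62, adjusted p = 0.82).

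Erbb3, the receptor of neuregulin 1, read 7.64, 8.41 and 7.96 on the CD133 high arrays and 8.28, 8.54 and 8.38 on the CD133 low arrays at Erbb3 1434606_at. CD133 high replicates 1 and 3 lay below the CD133 low arrays and replicate 2 among them. The difference of −0.39 (SE 0.23, 95% interval −0.94 to 0.15) had an adjusted p of 0.404, and it was −0.21 without CD133 high replicate 1 (adjusted p = 0.443). It was −0.86 when adjusted for hybridisation control level (adjusted p = 0.286). The dimmer Erbb3 1452482_at averaged 5.34 in both fractions (adjusted p = 1). Higher Nrg1 readings thus stood beside Erbb3 readings that were lower on 2 of the 3 CD133 high arrays.

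**Figure D4:**
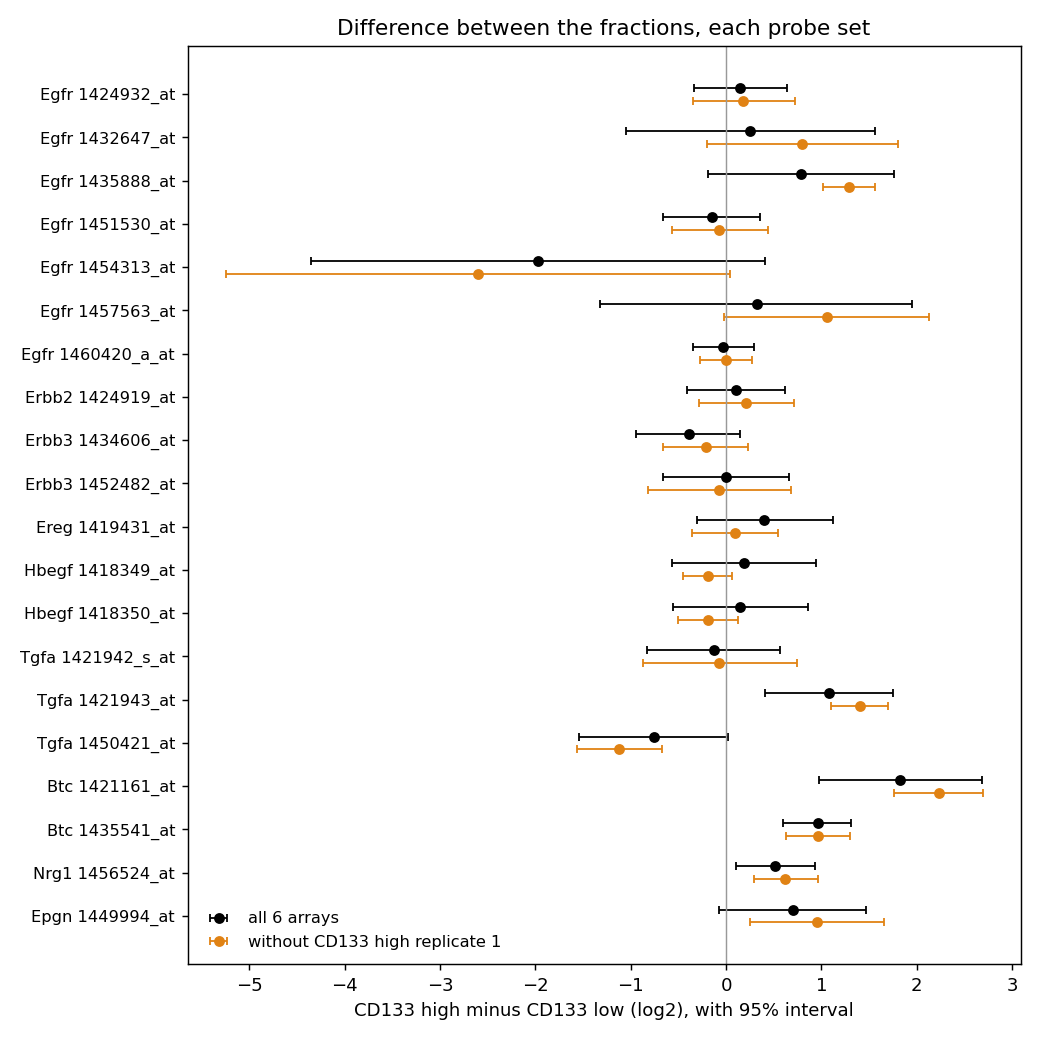
Difference between the fractions (CD133 high minus CD133 low, log2) with its 95% interval for each of the 20 probe sets, over all 6 arrays (black) and without CD133 high replicate 1 (orange). Over 6 arrays the intervals of Btc (both), Nrg1 and Tgfa 1421943_at lie above 0, and the interval of Egfr 1435888_at does so only without that array.

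Without CD133 high replicate 1, 5 of the 20 probe sets were called higher (both of Btc, Tgfa 1421943_at, Egfr 1435888_at and Nrg1) and 1 lower (Tgfa 1450421_at), against 9.5% and 11.8% of all probe sets (21.3% in either direction). Leaving out any other single array left 0 of the 20 called.

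The genes of epigen, epiregulin, amphiregulin and betacellulin follow each other in this order on chromosome 5 in RefSeq's GRCm38.p6 annotation, with 3 noncoding genes and no other protein-coding gene among them. These neighbours did not share 1 pattern: on CD133 high replicate 1 Btc 1435541_at and Ereg were above the CD133 low mean by 0.94 and 1.03 and Epgn by 0.19, and on CD133 high replicate 2 by 0.90, −0.14 and 1.25.

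Among genes at or above the median level of all genes (9096 at their brightest probe sets), the 5 whose pattern over the 6 arrays was most like that of Btc 1435541_at were Nrep, Kcnab1, Lratd1, Thbs4 and Syt7. Their Pearson r with Btc ran over 0.998, 0.996, 0.992, 0.992 and 0.987 in that order, as a description of 6 arrays that share the split into fractions, and 122 of the 9096 had an r above 0.9. Thbs4, which encodes the matrix protein thrombospondin 4, read 8.81, 8.79 and 9.04 on the CD133 high arrays and 7.92, 7.60 and 7.63 on the CD133 low arrays (difference 1.17, adjusted p = 0.0742). Syt7, a calcium sensor of vesicle fusion, differed by 1.13, Lratd1 by 0.86, Kcnab1, a potassium channel subunit, by 0.72 and Nrep by 0.28 (adjusted p = 0.11, 0.119, 0.195 and 0.346). Thbs4, Syt7, Lratd1 and Kcnab1 were called without CD133 high replicate 1 (adjusted p = 0.00858, 0.00962, 0.0112 and 0.0194) and Nrep was not (0.0826). In all 5 the CD133 high arrays lay above the CD133 low arrays, which likeness to Btc brings with it.

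Of the 5 family genes outside the set, 0 were called in either direction. Erbb4, the fourth receptor, was dim and scattered, at 3.34, 2.50 and 5.19 on the CD133 high arrays and 1.19, 2.65 and 4.18 on the CD133 low arrays (2.01-fold, 95% interval of the log2 difference −1.29 to 3.30, adjusted p = 0.603). Egf, the ligand that gave the family its name, differed by 0.09, and the neuregulins Nrg2, Nrg3 and Nrg4 by −0.02, 0.33 and 0.26, with adjusted p from 0.7 to 0.976.

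Around the receptors, 79 of 84 genes in 5 lists were measured, and 0 were called by limma at their brightest probe sets, where 0.022% of all 18193 genes were called higher and 0.231% lower. At an unadjusted p under 0.05, 12 were higher and 6 lower, beside 8.3% and 9.94% of all genes. Without CD133 high replicate 1, 11 were called higher and 12 lower, beside 11.7% and 14.6% of all genes.

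Genes of ligand release had 10 positive and 1 negative difference among 11 and a median of 0.15, beside 0.00 over all genes. Adam9, a membrane protease, read 11.71, 11.75 and 12.18 on the CD133 high arrays and 11.27, 11.06 and 11.48 on the CD133 low arrays, without overlap (difference 0.61, SE 0.20, adjusted p = 0.297). Rhbdl2, a rhomboid protease, differed by 0.63 (adjusted p = 0.297), Adam12 by 0.25 and Adam15 by 0.29 (adjusted p = 0.397 and 0.434). Adam15 was called without CD133 high replicate 1, by 0.45 (adjusted p = 0.0362) and Adam9 was not (0.0503). On CD133 high replicates 1, 2 and 3 the list median lay 0.43, 0.13 and 0.16 above the CD133 low mean. Adam17, the main sheddase of several EGFR ligands, differed by 0.25 (adjusted p = 0.566), and Adam8 by −0.59 (adjusted p = 0.612) over 6 arrays and −1.30 (adjusted p = 0.00756) without CD133 high replicate 1. Both were chosen after their values were seen.

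Receptor adaptors and effectors were divided, with 12 positive and 11 negative differences among 23 genes and a median of 0.03. Map2k1, which encodes the kinase MEK1, read 11.84, 12.44 and 12.43 on the CD133 high arrays and 11.50, 11.29 and 11.46 on the CD133 low arrays (difference 0.82, SE 0.21, adjusted p = 0.272). Stat5b, a transcription factor activated by receptor kinases, read 9.53, 9.27 and 9.22 in CD133 high, against 9.90, 9.92 and 9.94 in CD133 low (difference −0.58, SE 0.14, adjusted p = 0.265). Neither gene had overlapping groups. Plcg1, a phospholipase recruited by EGFR, differed by −0.40 (0.42 as the mean of its probe sets) and Eps8, an EGFR substrate, by 0.56 (adjusted p = 0.297 each). Map2k1, Stat5b and Plcg1 were called without CD133 high replicate 1, by 1.01, −0.68 and −0.41 (adjusted p = 0.00507, 0.00903 and 0.0405).

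Genes that switch receptors off were divided as well, with 10 positive and 10 negative differences among 20 and a median of 0.04. Cblb, a ubiquitin ligase of the Cbl family, read 9.34, 8.46 and 8.57 on the CD133 high arrays and 10.34, 10.23 and 11.48 on the CD133 low arrays. These did not overlap and differed by −1.89 (SE 0.39, adjusted p = 0.187). T and natural killer cell markers, 9 of 12 measured with 3 called and none at 0, summed to 1560 to 2080 in CD133 high and 5060 to 6950 in CD133 low. Of these 9, 6 were negative and 3 positive in difference (list median −1.93). Cblb is known in those cells too, and their part in its difference was not tested. Ubash3b, a phosphatase that acts on receptor kinases, differed by −0.98, Sh3kbp1, an adaptor of Cbl in endocytosis, by −0.40 and Stam, a component of endosomal sorting, by 0.61 (adjusted p = 0.297 each). Cblb, Ubash3b, Sh3kbp1 and Stam were called without CD133 high replicate 1, by −2.17, −1.31, −0.41 and 0.72 (adjusted p = 0.0171, 0.00314, 0.0409 and 0.03). The feedback inhibitors Errfi1 and Lrig1, chosen after their values were seen, differed by −0.42 and −0.03 (adjusted p = 0.416 and 0.921), and Errfi1 was called by −0.68 without CD133 high replicate 1 (adjusted p = 0.0249).

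Immediate-early genes, which growth factors and also tissue handling induce, had 15 positive and 5 negative differences among 20, with a median of 0.21. Plaur, the urokinase receptor, read 12.90, 12.76 and 12.86 on the CD133 high arrays and 12.32, 12.03 and 12.39 on the CD133 low arrays (difference 0.59, SE 0.16, adjusted p = 0.291). Ccnd1 (cyclin D1), Ptgs2 (cyclooxygenase 2) and Fosb differed by 0.33, 0.36 and 0.40 (adjusted p = 0.337, 0.386 and 0.394). Plaur and Fosb were called without CD133 high replicate 1, by 0.56 and 0.60 (adjusted p = 0.0426 and 0.0327). Myc, chosen after its values were seen, was the 1 gene of the list called lower in that fit (−0.66, adjusted p = 0.0468). The groups did not overlap in 5 of the 20, each higher in CD133 high, as in 10.8% of all genes (12.8% lower). The list median lay 0.25, 0.05 and 0.21 above the CD133 low mean on CD133 high replicates 1, 2 and 3.

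**Figure D5:**
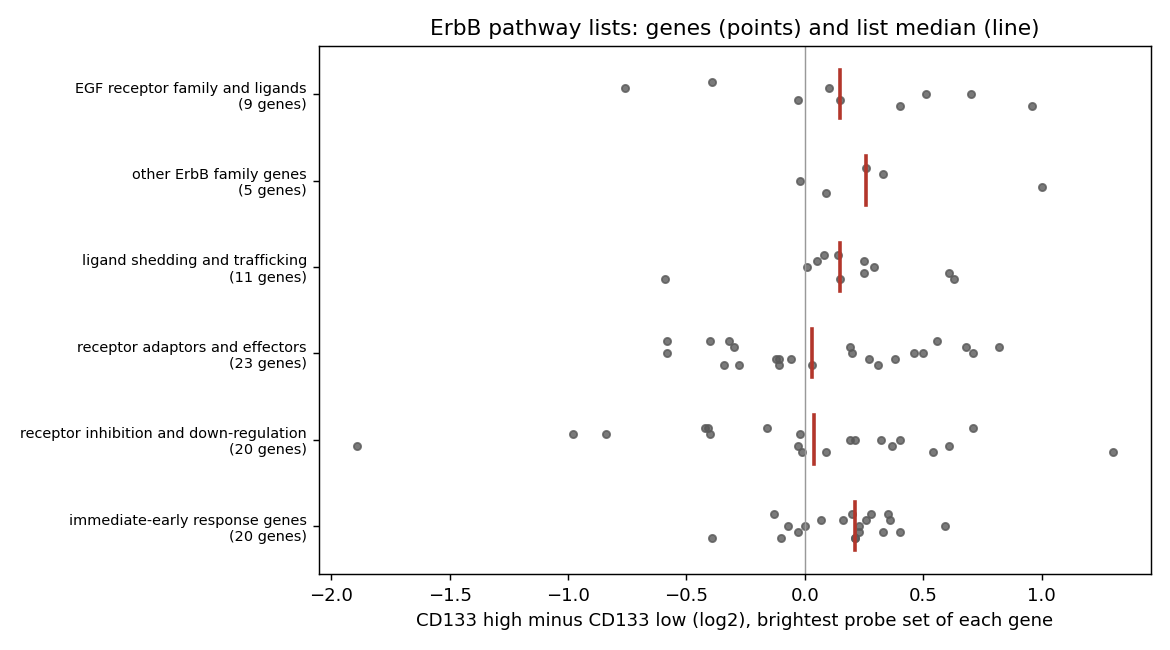
Difference between the fractions (CD133 high minus CD133 low, log2) at the brightest probe set of each gene (points, spread vertically for visibility) for the 9 measured family genes and 5 pathway lists, with list medians as red lines. Ligand release and immediate-early genes lie mostly right of 0, with medians of 0.15 and 0.21, and receptor inhibition genes spread from −1.89 to 1.30.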

How the data were processed

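RNA of sorted tumour cells was hybridised as biotinylated cRNA to Affymetrix mouse arrays, per the labels' protocols. The authors deposited a table taken to be on the log2 scale from its range. Their summarisation and normalisation are not given in the sources used here, and detection calls were not used. Replicates were numbered in accession order, so a shared number pairs no samples. The spread behind each p-value is that between these arrays and may be technical. At most 702 probe sets had exactly equal deposited values on any pair of arrays, probe sets at 0 on both included.

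After 64 control probe sets were left out, all 45037 were fitted with limma 3.58.1 in R 4.3.3 (variance trend, two-sided, Benjamini-Hochberg adjustment over all of them, threshold 0.05). The platform annotation, which can be old, gave 1 gene for 34945 of these, several for 932 and none for 9160, and only the first kind were named. A gene in a list was represented by its probe set of highest mean. Named were every probe set of the members, Prom1, the other family genes, up to 4 genes of each list with the smallest p, and the 5 genes most like the member with the smallest p. The members, lists and alternatives were chosen with earlier results of these data known. The steps were tested on simulated data. The number of arrays limits the precision. One further allele of the cell line is not reported here.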

Additional observations from a re-analysis of the deposited data

How the results depend on the processing

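No paired analysis was possible because the labels carry no replicate numbers. Of 818 differences recomputed for 47 probe sets under up to 18 alternatives, 751 kept their direction and side of the threshold, 38 passed it and 29 changed sign. A difference that rounded to 0.00 had no direction and was not counted as a change of sign. This held for Erbb3 1452482_at, at 0.00 over 6 arrays, which ran from −0.10 to 0.15. Both Btc probe sets, Ereg, Nrg1, Epgn, Tgfa 1421943_at and Egfr 1424932_at stayed positive throughout. Btc 1435541_at ran from 0.90 to 1.39 (adjusted p 0.00935 to 0.493) and Btc 1421161_at from 1.02 to 2.23 (0.00309 to 0.646). Tgfa 1421943_at ran from 0.44 to 1.40 (0.00326 to 0.729). Erbb3 1434606_at, Egfr 1451530_at (−0.31 to −0.06) and Egfr 1454313_at (−2.78 to −0.70) stayed negative. The count of called probe sets among the 20 was 0 to 6 when single arrays were left out, 5 with array weights and 1 at a threshold of 0.1. For the pathway genes it was 0 to 23 and, with array weights, 7. Over the whole array, 82 calls became 157 with equal 75th percentiles, 175 without the dimmest 50%, 36 with values below 5 set to 5, 7 with no variance trend, 185 with a robust trend, 4808 with array weights, 195 at a threshold of 0.1, 0 with CD133 high replicate 1 alone, and 0 to 9603 when single arrays were left out. At a threshold of 0.05, probe sets among the 20 were called under 2 of these alternatives, array weights and leaving out CD133 high replicate 1.

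Sign changes were as follows. Array weights gave −0.08 for both Hbegf probe sets. When single arrays were left out, Hbegf 1418349_at ran from −0.19 to 0.38, Hbegf 1418350_at from −0.19 to 0.40, Tgfa 1421942_s_at from −0.38 to 0.07, Erbb2 from −0.05 to 0.21, Egfr 1432647_at from −0.11 to 0.80, Egfr 1457563_at from −0.28 to 1.06, Nrg2 from −0.08 to 0.04, Nrg3 from −0.02 to 0.60, Nrg4 from −0.06 to 0.67 and Egf from −0.08 to 0.20. Adjusting for hybridisation control level, Erbb2 differed by −0.11, Egfr 1432647_at, 1435888_at and 1457563_at by −0.51, −0.15 and −1.23, Nrg4 by −0.51 and Egf by −0.15. With CD133 high replicate 1 alone these 6 were −0.12, −0.83, −0.22, −1.16, −0.55 and −0.12, and Adam15 was −0.02. Averaging all probe sets of a gene gave 0.06 for Tgfa and 0.42 for Plcg1. The cause of these changes was not tested.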
